A study of Homo sapiens with 18 samples.

Results

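The sterol and lipid synthesis genes described here are 37 of the 19784 genes listed in each library's table, chosen by name: 7 enzymes of the mevalonate pathway, 12 enzymes that turn farnesyl diphosphate into cholesterol, 6 genes of SREBP control, 6 of fatty acid synthesis and 6 of cholesterol export and its LXR control. Poly(A) RNA was sequenced in 18 libraries of THP-1 cells, which come from a human monocytic leukaemia and carry the MLL-AF9 fusion. In the first experiment, a line labelled PHF8 and a line labelled F279S were set against parental cells labelled wt, with 4 libraries each, no treatment and no day named. PHF8 is a histone demethylase, and F279S is known as a form of it without catalytic activity. In the second experiment, all libraries were taken on day 3, with 2 libraries a line. ERDD libraries carry the genotype PHF8DD and ERAA libraries the genotype PHF8AA, both with 4-OHT (4-hydroxytamoxifen, 100 nM). ERPHF8 libraries carry the genotype PHF8 and name no treatment, so in every comparison with ERPHF8 the form of PHF8 and the 4-OHT label cannot be told apart. The sources used here do not give the vector, its promoter or whether a line is 1 clone or a pool. Nothing in the labels says that libraries of a group came from separate cultures, so p-values measure the spread between these libraries, which may be technical.

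Cells make cholesterol from acetyl-CoA through mevalonate, isoprenyl diphosphates, squalene and lanosterol. When the endoplasmic reticulum is poor in sterol, SCAP carries the precursors of the SREBP transcription factors, the products of SREBF1 and SREBF2, to the Golgi, where they are cut and set free to raise the genes of sterol and fatty acid synthesis. INSIG1 and INSIG2 hold SCAP back when sterol is plentiful. Oxysterols instead activate the liver X receptors, the products of NR1H2 (LXR beta) and NR1H3 (LXR alpha), which raise the cholesterol exporters ABCA1 and ABCG1 and the ligase MYLIP, which removes lipoprotein receptors. In monocytes and macrophages both arms are well known, because these cells take up and export much lipid.

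Of the 37 genes, 32 were matched to a promoter among those searched from the RefSeq table (GRCh38.p14), with 45 promoters in all. Each promoter spans 250 bases before to 50 after a start site. The 5 members not matched were not searched, which does not show that the table lacks them. Shares of all promoters and of all genes are shares of those searched. Promoters were searched on both strands for the sterol element bound by SREBP. Its strict form, TCACNCCAC, was in a promoter of 1 of 32 members, SREBF2, against 1.13% of all promoters and 1.39% of all genes. A looser form, TCACNCNAC, which also matches the strict one, was in those of 4 of 32 members, FDPS, HSD17B7, FADS2 and SREBF2, against 2.55% of all promoters and 3.13% of all genes. The 4 promoters are shown because they hold this element, with the element and each CCAAT box (the NF-Y motif, on either strand) in capitals, 5′ to 3′ on the strand of the gene, which is the plus strand in all 4.
FDPS, chr1:155308616-155308915: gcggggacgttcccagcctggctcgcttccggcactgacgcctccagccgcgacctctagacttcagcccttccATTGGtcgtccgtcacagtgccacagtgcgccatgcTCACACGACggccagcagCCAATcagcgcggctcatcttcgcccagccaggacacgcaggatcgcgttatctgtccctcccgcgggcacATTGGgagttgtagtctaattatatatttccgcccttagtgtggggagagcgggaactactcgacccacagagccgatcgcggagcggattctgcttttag
HSD17B7, chr1:162790452-162790751: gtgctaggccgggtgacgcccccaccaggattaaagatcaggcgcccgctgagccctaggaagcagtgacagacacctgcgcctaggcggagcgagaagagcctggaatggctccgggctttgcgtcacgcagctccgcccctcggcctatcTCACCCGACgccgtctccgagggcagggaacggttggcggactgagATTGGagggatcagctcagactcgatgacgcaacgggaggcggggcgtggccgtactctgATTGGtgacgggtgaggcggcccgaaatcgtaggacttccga
FADS2, chr11:61815953-61816252: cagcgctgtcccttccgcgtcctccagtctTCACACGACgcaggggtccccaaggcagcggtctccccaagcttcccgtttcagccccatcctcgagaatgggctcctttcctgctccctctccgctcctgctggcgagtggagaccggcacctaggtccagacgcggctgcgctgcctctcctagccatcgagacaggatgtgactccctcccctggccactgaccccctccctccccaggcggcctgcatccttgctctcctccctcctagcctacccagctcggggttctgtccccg
SREBF2, chr22:41832855-41833154: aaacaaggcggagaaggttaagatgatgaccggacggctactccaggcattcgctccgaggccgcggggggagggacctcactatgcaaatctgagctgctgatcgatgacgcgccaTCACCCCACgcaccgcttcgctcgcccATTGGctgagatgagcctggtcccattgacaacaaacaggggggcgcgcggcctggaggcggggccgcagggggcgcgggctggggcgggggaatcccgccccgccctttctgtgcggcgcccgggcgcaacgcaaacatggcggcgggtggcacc
The element begins 140 bases before the start site in FDPS, 98 in HSD17B7, 220 in FADS2 and 133 in SREBF2. The promoter of FDPS holds 3 CCAAT boxes, that of HSD17B7 holds 2, that of SREBF2 holds 1 and that of FADS2 holds 0. CCAAT was in a promoter of 22 of 32 members (39.7% of all genes), the GC box GGGCGG in 30 (48.3%) and the E-box CANNTG in 21 (73.1%). The LXR direct repeat, searched as AGGTCA repeated after a gap of 4 bases, was in 0 of 32 members and in 0.0256% of all genes. The window of FADS2 lies inside the deposited span of the gene and not at its first base. A match is a run of letters in this window, not a shown binding site.

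Library totals were 19.7 to 50.3 M reads for PHF8, 18.2 to 51.5 M for F279S, 19.4 to 42.3 M for wt and 40.6 to 41.3 M for the ER lines. In the first experiment PHF8 RNA followed the labels, with means of 2020 CPM (reads of the gene per M reads of the library) in the PHF8 line, 5381 CPM in F279S and 50.6 CPM in wt. In the second its means were 1109 CPM in ERDD, 1906 CPM in ERPHF8 and 2150 CPM in ERAA. All ER lines are labelled with a form of PHF8 and none is parental, so these means do not check their labels. Of 14 monocytic leukaemia markers, 13 averaged at least 1 CPM in every group and MEIS1 did not. Summed T cell markers were at most 0.533 CPM in any library. Collagen RNA stood apart in 1 PHF8 library and 1 F279S library: COL1A1, COL1A2 and COL3A1 summed to 30.6 CPM in PHF8 library 1 and 33.8 CPM in F279S library 2, against 0.927 to 2.06 CPM in the other 10 libraries of that experiment. The spans of 9 members lie partly over other listed genes, so that reads can be counted for both (MVK, ACAT2, CYP51A1, TM7SF2, SREBF1, FADS1, FADS2, NR1H2 and NR1H3), which makes their values uncertain, and FDPS, CYP51A1, HSD17B7, FADS2 and SCD have pseudogenes of their name that can take reads. CPM does not correct for gene length, so levels are compared within a gene and not between genes.

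In the first experiment, the libraries numbered 3 and 4 of each line stood apart from those numbered 1 and 2, and sterol synthesis genes were among the genes that differed. The labels do not say what sets these pairs apart. Averaged over the 3 lines, 27 of the 36 members tested were higher in libraries 3 and 4 than in libraries 1 and 2 and 6 were lower, at an adjusted p below 0.05 by limma; of all 13683 genes tested, 38.1% were called higher and 32.3% lower. ABCG1, at 0.150 to 0.388 CPM, did not pass the minimum of 1 CPM in 4 libraries and was not tested. The median log2 difference was 0.32 over members and 0.03 over all genes, on the log2(CPM + 0.5) scale used for every log2 value here. By role, 6 of 7 mevalonate enzymes, 11 of 12 sterol enzymes, 4 of 6 SREBP control genes, 3 of 6 fatty acid genes and 3 of 5 export and LXR genes were higher. As in any bulk sample, more cells with the RNA and more RNA per cell cannot be told apart.

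Among the mevalonate enzymes, HMGCS1, which makes HMG-CoA, had 295 and 315 CPM in PHF8 libraries 3 and 4, against 168 and 157 CPM in PHF8 libraries 1 and 2. In F279S cells it had 200.1 and 207 CPM in libraries 3 and 4, against 127 and 115 CPM in libraries 1 and 2. In wt cells it had 246 and 258 CPM in libraries 3 and 4, against 119 and 122 CPM in libraries 1 and 2. The pairs did not overlap within any line, and the averaged log2 difference was 0.90 ± 0.03 (SE; adjusted p = 4.37e-10, limma). MVD, the mevalonate diphosphate decarboxylase (0.71), IDI1, the isopentenyl diphosphate isomerase (0.69), FDPS, the farnesyl diphosphate synthase (0.62), MVK, mevalonate kinase (0.41), and ACAT2, a thiolase that joins acetyl-CoA units (0.29), were also higher in libraries 3 and 4. PMVK, phosphomevalonate kinase, was lower, with 34.2 and 35.2 CPM in wt libraries 3 and 4, against 55.0 and 49.4 CPM in wt libraries 1 and 2 (averaged log2 difference -0.44 ± 0.04).

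Of the sterol enzymes, MSMO1, an oxidase that removes methyl groups from the sterol ring, had the largest averaged difference of all members, 1.03 ± 0.03 (SE; adjusted p = 8.88e-11, limma). It had 60.6 and 62.1 CPM in PHF8 libraries 3 and 4, against 38.7 and 36.4 CPM in PHF8 libraries 1 and 2. In F279S cells the values were 81.3 and 83.5 CPM in libraries 3 and 4, against 38.1 and 37.1 CPM in libraries 1 and 2. In wt cells they were 91.7 and 90.3 CPM in libraries 3 and 4, against 39.1 and 36.3 CPM in libraries 1 and 2. Libraries 1 and 2 of the 3 lines thus lay close together for MSMO1, while libraries 3 and 4 of PHF8 lay below those of F279S and wt. DHCR7, the last reductase of the pathway (0.77), HSD17B7, a ketosteroid reductase (0.70), LSS, lanosterol synthase (0.68), TM7SF2, a sterol reductase (0.62), and FDFT1, squalene synthase (0.51), followed, and LBR, a sterol reductase that also anchors chromatin at the nuclear envelope, was the member of this role called lower (-0.20). EBP (0.42), CYP51A1 (0.40), SQLE (0.27), SC5D (0.26) and NSDHL (0.10) were higher by less. The call of NSDHL was lost in 9 of 12 fits that left out 1 library each (adjusted p of 0.0698 to 0.139 by limma) and kept without F279S library 2, wt library 2 or wt library 3.

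INSIG1 was the SREBP control gene with the largest averaged difference, 0.94 ± 0.03 (SE; adjusted p = 2.63e-10, limma). It had 231 and 245 CPM in PHF8 libraries 3 and 4, against 167 and 164 CPM in PHF8 libraries 1 and 2. The F279S libraries 3 and 4 had 254 and 274 CPM, against 134 and 136 CPM in F279S libraries 1 and 2. The wt libraries 3 and 4 had 269 and 296 CPM, against 114 and 109 CPM in wt libraries 1 and 2. The order of the lines was thus the opposite in the pairs: PHF8 libraries were the lowest of libraries 3 and 4 and the highest of libraries 1 and 2. STARD4, a cytosolic sterol carrier (0.84), INSIG2 (0.66) and SREBF2 (0.32) were also higher in libraries 3 and 4, SCAP was lower (-0.28), and SREBF1 was not called (-0.05, adjusted p = 0.42). Of the fatty acid genes, the desaturases FADS1 (0.32), FADS2 (0.24) and SCD (0.25) were higher, while FASN, fatty acid synthase (-0.47), and ACLY, ATP citrate lyase (-0.14), were lower and ELOVL6 was not called (-0.11). FADS2 can also hold reads of FADS1 and the neighbouring FEN1. If it held all of them, the rest in wt would be 187 and 190 CPM in libraries 3 and 4, against 81.3 and 83.4 CPM in libraries 1 and 2. In F279S it would be 202 and 199 CPM against 134 and 131 CPM. PHF8 went the other way, with 157 and 152 CPM against 168 and 169 CPM. Of the export and LXR genes, APOE (0.37), NR1H2 (0.30) and NR1H3 (0.21) were higher, MYLIP was lower (-0.16) and ABCA1 was not called (-0.08). ABCA1 differed by -0.62 in PHF8, -0.44 in F279S and 0.81 in wt. The 10 members of smallest p were MSMO1, INSIG1, HMGCS1, STARD4, DHCR7, FDPS, IDI1, MVD, TM7SF2 and INSIG2, with adjusted p of at most 6.34e-08 by limma.

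**Figure D1:**
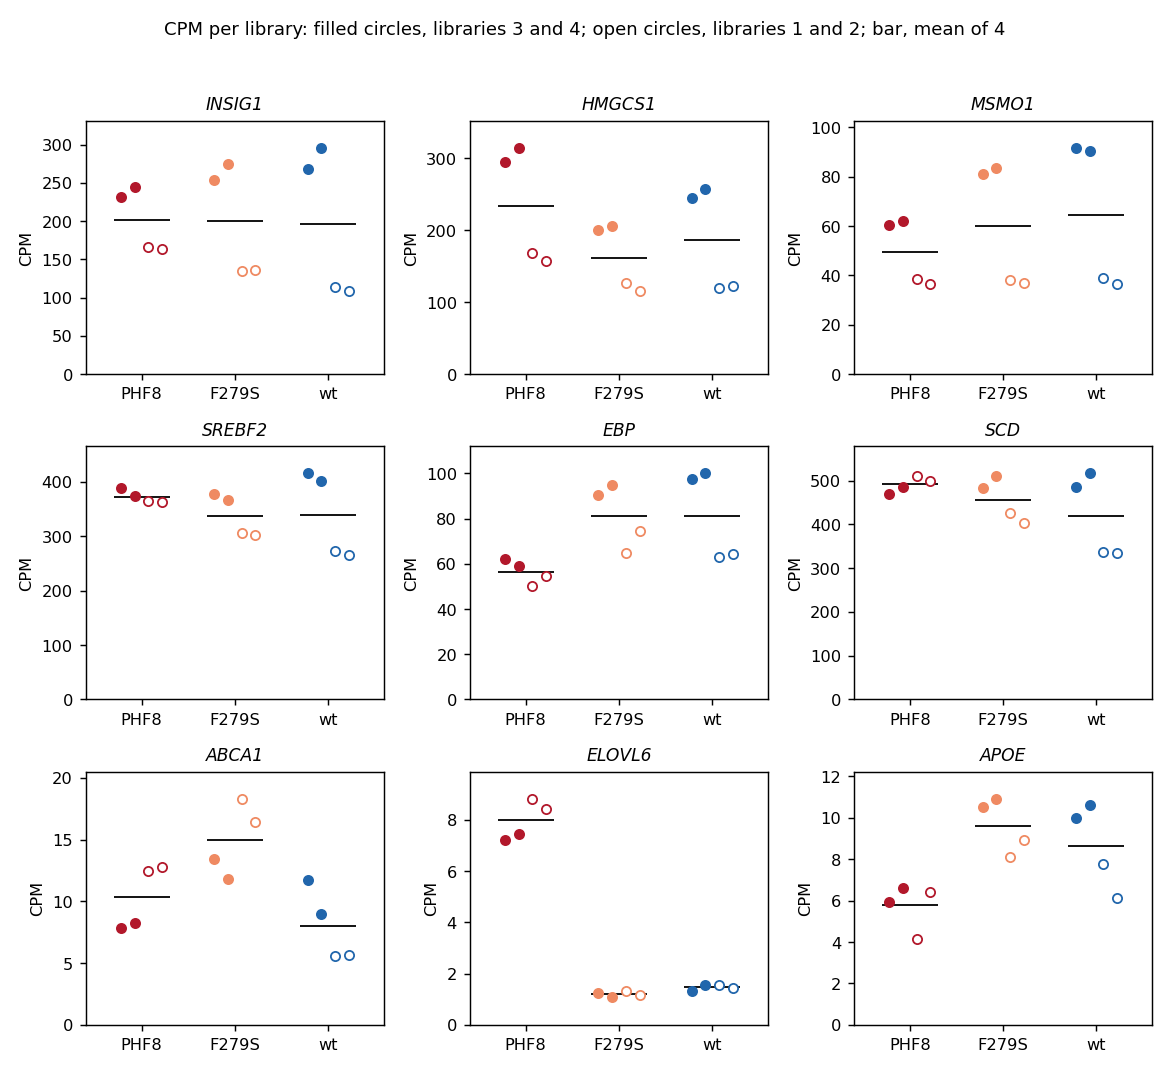
CPM in each library (y axis, from 0) for 9 members in the PHF8, F279S and wt lines, with filled circles for libraries 3 and 4, open circles for libraries 1 and 2 and a bar at the mean of 4. INSIG1, HMGCS1 and MSMO1 were higher in libraries 3 and 4 of every line, and ELOVL6 was higher in all 4 PHF8 libraries than in any library of the other lines.

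Depth differed with the pairs too, at 20.8 to 51.5 M reads in libraries 3 and 4 and 18.2 to 24.3 M in libraries 1 and 2. The part of depth in these results was not tested.

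The pair difference was not the same in the 3 lines. Its median over the 36 members was 0.17 in PHF8, 0.31 in F279S and 0.56 in wt, while over all genes it was -0.00076 in PHF8, 0.03 in F279S and 0.04 in wt. Taken with its sign, the pair difference was lower in PHF8 than in wt for 32 of 36 members (51.9% of all genes tested). It was lower in F279S than in wt for 32 of 36 (49.01%). Both counts share the wt libraries, and so does the order of the 3 lines given below. A lower value can also be a larger fall, as for FASN, with -0.50 in PHF8 and -0.32 in wt. For 24 of 36 members the order was PHF8 below F279S below wt, an order that 26.6% of all genes had. INSIG1 differed by 0.52 in PHF8, 0.96 in F279S and 1.34 in wt, and STARD4 by 0.31 in PHF8, 0.996 in F279S and 1.21 in wt. LSS differed by 0.29 in PHF8, 0.61 in F279S and 1.14 in wt. SQLE, squalene epoxidase, was unlike these, with 0.34 in PHF8, 0.22 in F279S and 0.26 in wt.

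**Figure D2:**
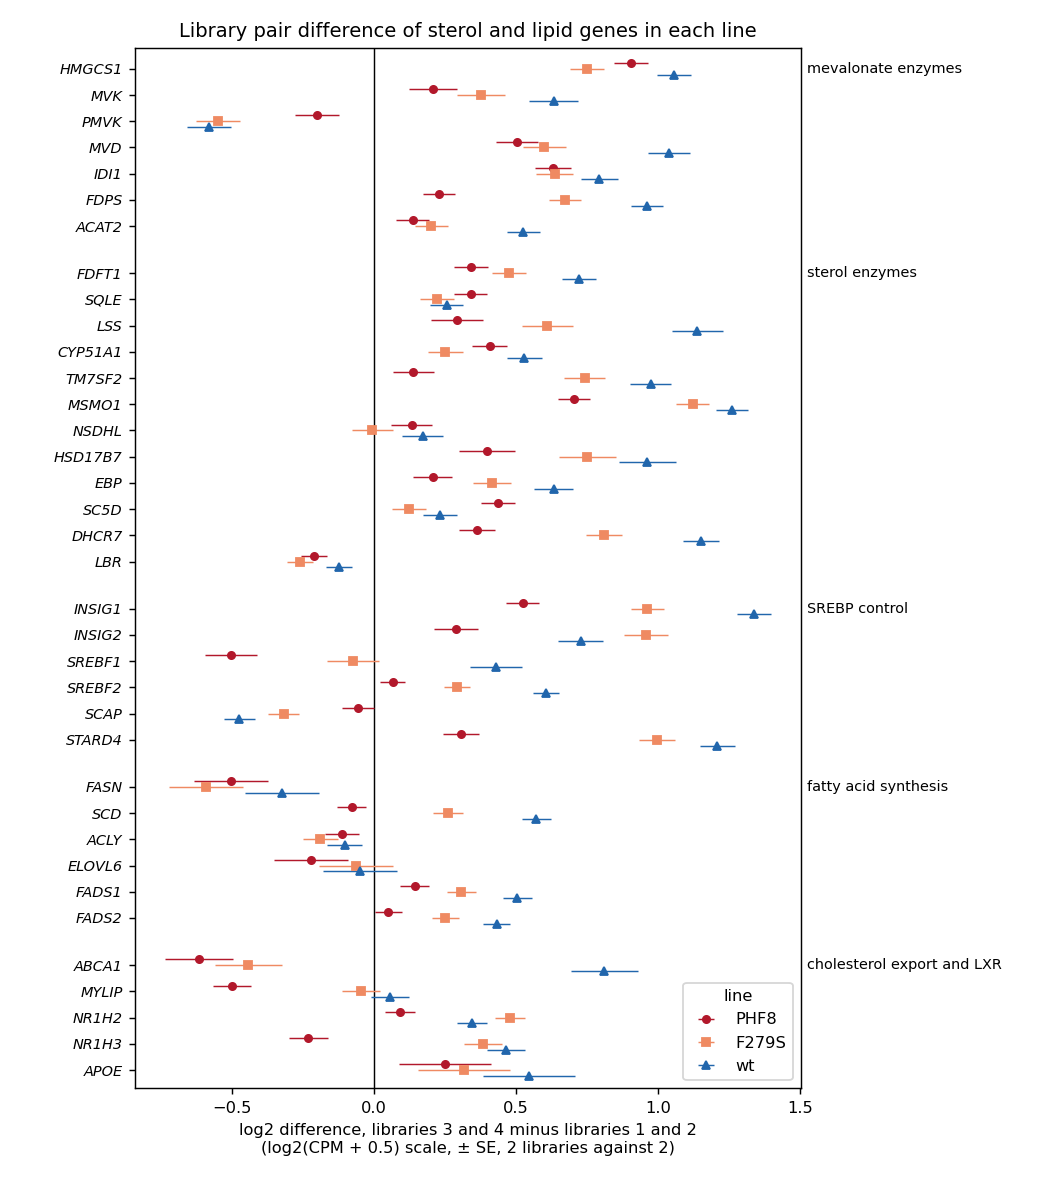
The log2 difference of libraries 3 and 4 minus libraries 1 and 2 (x axis, ± SE, 2 libraries against 2) for the 36 members tested, by role, in PHF8 (circles), F279S (squares) and wt (triangles). Most sterol and mevalonate enzymes lie right of 0 in all 3 lines, and for 24 of 36 members the PHF8 point lies left of the F279S point and that left of the wt point.

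That dependence on the line was tested as an interaction, the difference between lines in libraries 3 and 4 minus that in libraries 1 and 2. For PHF8 against wt, 2 of 36 members had a positive interaction and 23 a negative one by limma, while 16.1% of all genes were called positive and 14.4% negative. The median over members was -0.41, against -0.02 over all genes. Of the 23 negative ones, 4 were mevalonate enzymes, 7 sterol enzymes, 5 SREBP control genes, 3 fatty acid genes and 4 export and LXR genes. The smallest p-values were those of STARD4 (-0.90 ± 0.09, adjusted p = 5.52e-05), INSIG1 (-0.81 ± 0.08, adjusted p = 5.66e-05), FDPS (-0.73 ± 0.08, adjusted p = 8.21e-05) and SCD (-0.65 ± 0.07, adjusted p = 0.000114), followed by DHCR7 (-0.79 ± 0.09), ABCA1 (-1.43 ± 0.17), SREBF2 (-0.54 ± 0.06), TM7SF2 (-0.84 ± 0.10), NR1H3 (-0.69 ± 0.10) and SREBF1 (-0.93 ± 0.13), with adjusted p of at most 0.000392 by limma. PMVK (0.38) and SCAP (0.42), both lower in libraries 3 and 4, were the 2 positive ones. In 12 fits that left out 1 library each, PMVK lost its call in 3 (without PHF8 library 1 or 4 or wt library 1), MVK in 4 (without PHF8 library 1 or 4 or wt library 2 or 3) and NR1H2 in 4 (without PHF8 library 2 or 4 or wt library 2 or 3).

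For F279S against wt, 0 of 36 members had a positive interaction and 2 a negative one, ABCA1 (-1.25 ± 0.17 SE, adjusted p = 0.00282, limma) and SREBF2 (-0.31 ± 0.06 SE, adjusted p = 0.0407, limma); 0.38% of all genes were called positive and 0.519% negative. With the replicate number as a block, 14 of 36 members were called, all negative, and 4.28% of all genes. ABCA1 kept its call in all 12 fits that left out 1 library each. SREBF2 lost its call in 11 of them and kept it without wt library 4, where 5 members were called; without wt library 3 the count was 2, and in the other 10 fits it was 1. For PHF8 against F279S, 3 members had a positive interaction and 14 a negative one, against 11.8% and 10.1% of all genes. The negative ones included STARD4 (-0.69 ± 0.09, adjusted p = 0.000399), NR1H3 (-0.62 ± 0.10), INSIG2 (-0.67 ± 0.11), TM7SF2 (-0.60 ± 0.10), FDPS (-0.44 ± 0.08), INSIG1 (-0.44 ± 0.08), MSMO1 (-0.42 ± 0.08), NR1H2 (-0.39 ± 0.08), DHCR7 (-0.45 ± 0.09) and MYLIP (-0.45 ± 0.09), the 10 of smallest p, with adjusted p of at most 0.0062 by limma. PMVK (0.35), SCAP (0.26) and SC5D, a sterol desaturase (0.31), were the 3 positive ones. The count was 11, all negative, without F279S library 3. In the 12 fits that left out 1 library each, FADS2 lost its call in 10, SREBF1 in 8, SCAP in 7, SREBF2 in 5, PMVK in 4 and SC5D in 3. FADS2 kept its call without wt library 3 or 4, and SREBF1 kept its call without PHF8 library 3, F279S library 4 or wt library 3 or 4. SCAP kept its call without PHF8 library 4 or any 1 wt library. SREBF2 was lost without PHF8 library 1, 2 or 4 or F279S library 2 or 3, PMVK without PHF8 library 1 or 4 or F279S library 2 or 3, and SC5D without PHF8 library 2 or 4 or F279S library 3.

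Cells with more PHF8 were first set against parental cells. Over the 4 libraries of each line, 1 of 36 members was called, ELOVL6, an elongase that lengthens saturated and monounsaturated fatty acids. It was higher, and 0 members were called lower, while 12.7% of all genes were called higher and 8.28% lower. ELOVL6 had 8.82, 8.43, 7.21 and 7.44 CPM in PHF8 libraries 1 to 4, against 1.55, 1.44, 1.33 and 1.54 CPM in wt libraries 1 to 4. The lines did not overlap, with means of 7.97 ± 0.771 CPM in PHF8 and 1.46 ± 0.105 CPM in wt (SD, n = 4 each), a ratio of 5.44. Its log2 fold change was 2.11 ± 0.11 (SE; adjusted p = 3.39e-07, limma), and it kept its call within each library pair, with 2.02 in libraries 3 and 4 and 2.19 in libraries 1 and 2.

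EBP, the sterol isomerase, was lower in every PHF8 library but not called. It had 50.4, 54.6, 61.9 and 59.3 CPM in PHF8 libraries 1 to 4, against 63.0, 64.3, 97.7 and 100.0 CPM in wt libraries 1 to 4, and the groups did not overlap (-0.49 ± 0.17 SE, adjusted p = 0.0628, limma). Apolipoprotein E, the product of APOE and a carrier of exported cholesterol, had 4.16, 6.41, 5.92 and 6.59 CPM in PHF8, against 7.76, 6.13, 9.96 and 10.6 CPM in wt, and these overlapped (-0.53 ± 0.18 SE, adjusted p = 0.0613, limma). With the replicate number as a block, which takes out the pair difference, 11 of 36 members were called and 41.4% of all genes. Of these, 8 were higher, ELOVL6, HMGCS1, ACAT2, IDI1, TM7SF2, LBR, SC5D and FADS1. The 3 lower ones were EBP (adjusted p = 0.000709), APOE (adjusted p = 0.00702) and MSMO1 (adjusted p = 0.0391, limma). This fit averages over the pairs, and some of these members differed mostly in 1 pair. Mean CPM of TM7SF2 was 24.9 in PHF8 and 13.7 in wt in libraries 1 and 2, but 27.5 and 27.4 in libraries 3 and 4. That of FADS1 was 234 and 180 in libraries 1 and 2, but 259 and 256 in libraries 3 and 4. MSMO1 had 37.5 and 37.7 in libraries 1 and 2, but 61.4 and 91.0 in libraries 3 and 4. Without the block, leaving out wt library 1, 2, 3 or 4 gave 2, 3, 2 and 2 members in place of 1.

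Within the library pairs, the PHF8 line differed from wt in opposite directions for many members. In libraries 3 and 4 alone, 4 of 36 members were higher in PHF8 and 14 lower, against 23.8% and 18.3% of all genes. The median log2 fold change there was -0.08 over members and 0.01 over all genes. In libraries 1 and 2 alone, 19 were higher and 4 lower, against 27.3% and 24.1% of all genes, with a median of 0.22 over members and 0.0083 over all genes. INSIG1 was lower in PHF8 in libraries 3 and 4 (-0.24, adjusted p = 0.0284) and higher in libraries 1 and 2 (0.57, adjusted p = 5.21e-09). STARD4, FDPS and DHCR7 were likewise called lower in libraries 3 and 4 (-0.56, -0.49 and -0.39) and higher in libraries 1 and 2 (0.35, 0.24 and 0.39).

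Other members kept 1 direction. ELOVL6, HMGCS1 (0.28 in libraries 3 and 4, 0.43 in libraries 1 and 2) and LBR (0.19 in libraries 3 and 4, 0.27 in libraries 1 and 2) were called higher in PHF8 in both pairs. EBP (-0.70 in libraries 3 and 4, -0.28 in libraries 1 and 2) and APOE (-0.68 in libraries 3 and 4, -0.38 in libraries 1 and 2) were called lower in both. EBP, APOE and the members called in both pairs were singled out after their values were seen. Summed monocytic leukaemia markers were 4763 to 5426 CPM in PHF8 libraries and 5918 to 6741 CPM in wt libraries, and their part in these results was not tested. Of 5 fibroblast markers, 4 averaged at least 1 CPM in PHF8 and 2 in wt, with sums of 5.06 to 34.7 CPM in PHF8 libraries and 3.09 to 6.45 CPM in wt libraries; without PHF8 library 1, the highest, ELOVL6 was still the member called. Summed B cell markers were 20.7 to 26.6 CPM in PHF8 libraries, 9.10 to 19.3 CPM in F279S libraries and 9.41 to 19.5 CPM in wt libraries, with no overlap between PHF8 and the others; 4 of 5 averaged at least 1 CPM in PHF8, 3 in F279S and 3 in wt, and MS4A1 was at most 0.0597 CPM in any library of either experiment. Summed erythroid markers were 10.0 to 10.6 CPM in PHF8 libraries, 12.4 to 20.8 CPM in F279S libraries and 13.4 to 22.2 CPM in wt libraries. EPOR was the 1 of 5 erythroid markers that averaged at least 1 CPM in a line, and KLF1 and AHSP were at most 0.0962 CPM in any library of either experiment. The part of these markers in the results was not tested.

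**Figure D3:**
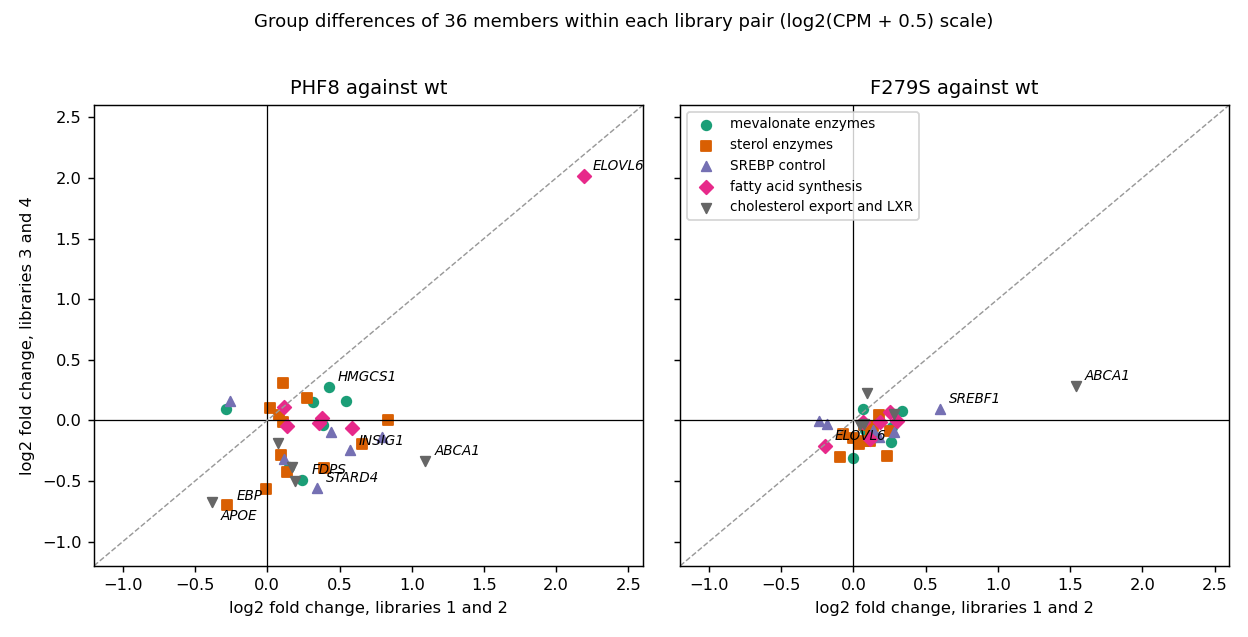
Log2 fold changes of the 36 members in libraries 3 and 4 (y axis) and in libraries 1 and 2 (x axis), for PHF8 against wt and F279S against wt, with a symbol for each role and a dashed line of equal values. For PHF8, 23 members lie below 0 in libraries 3 and 4 and 5 lie below 0 in libraries 1 and 2. The median over all genes was 0.01 in libraries 3 and 4 and 0.0083 in libraries 1 and 2. ELOVL6 lies near the dashed line at over 2 in both.

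The comparison of F279S with wt asked the same of the form without catalytic activity. Over all libraries, 0 of 36 members were called in either direction by limma, and 0 by voom on the recovered reads; 0.0146% of all genes were called higher and 0% lower. At an unadjusted p below 0.05 there were 2 members, ABCA1 and SREBF1, and 1 by voom, ABCA1. The share of all genes at that unadjusted p was not counted. The 3 of smallest p were ABCA1 (0.91 ± 0.25, adjusted p = 0.371), SREBF1 (0.35 ± 0.15, adjusted p = 0.758) and ELOVL6 (-0.20 ± 0.11, adjusted p = 0.846). ABCA1 had 18.3, 16.4, 13.4 and 11.8 CPM in F279S libraries 1 to 4, against 5.61, 5.67, 11.8 and 8.95 CPM in wt libraries 1 to 4. All F279S libraries were thus above all wt libraries, though F279S library 4, at 11.84 CPM, and wt library 3, at 11.76 CPM, lay side by side. Summed monocytic leukaemia markers were 4580 to 5657 CPM in F279S libraries and 5918 to 6741 CPM in wt libraries, with no overlap, and their part in these results was not tested.

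Within libraries 3 and 4, 0 of 36 members were called between F279S and wt, while 0.0439% of all genes were called higher and 0.0439% lower. At an unadjusted p below 0.05 by limma there were 9 members. The share of all genes at that unadjusted p was not counted, so the 9 cannot be set against it. Within libraries 1 and 2, 13 members were higher in F279S and 1 was lower, SCAP, against 7.45% and 6.75% of all genes. The higher ones were led by ABCA1 (1.54), SREBF1 (0.60), MVK (0.33), SCD (0.30) and INSIG1 (0.28). In the same libraries, PHF8 against wt gave 1.09 for ABCA1, 0.79 for SREBF1, 0.59 for SCD and 0.57 for INSIG1; both comparisons share the wt libraries.

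Set directly against F279S, the PHF8 line had 1 of 36 members higher, ELOVL6 (2.31 ± 0.11 SE, adjusted p = 5.25e-07, limma), and 1 lower, APOE (-0.70 ± 0.18 SE, adjusted p = 0.019, limma), while 12.2% of all genes were called higher and 7.92% lower. ELOVL6 had 1.34, 1.15, 1.23 and 1.11 CPM in F279S libraries 1 to 4, all below the lowest PHF8 library. APOE had 4.16, 6.41, 5.92 and 6.59 CPM in PHF8 libraries 1 to 4, against 8.09, 8.94, 10.5 and 10.9 CPM in F279S libraries 1 to 4, with no overlap. APOE was not called without PHF8 library 1 or without F279S library 4, which left ELOVL6 as the 1 member called. With the replicate number as a block, 11 members were called, 8 higher and 3 lower, and 41.1% of all genes. EBP (adjusted p = 0.000627, limma), APOE and NR1H2 were the lower ones. NR1H2 differed mostly in 1 pair, with means of 87.3 CPM in PHF8 and 88.7 CPM in F279S in libraries 1 and 2. In libraries 3 and 4 its means were 93.0 CPM in PHF8 and 124 CPM in F279S. In libraries 3 and 4 alone, 5 members were higher and 11 lower in PHF8 than in F279S (20.3% and 14.9% of all genes), and in libraries 1 and 2 alone 14 were higher and 4 lower (29.4% and 24.4% of all genes).

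In the second experiment, most genes of sterol and fatty acid synthesis were higher in ERDD than in ERAA and most of those of cholesterol export and LXR control were lower. Of 37 members, 25 were called higher and 10 lower in ERDD, while 34.8% of all 13831 genes tested were called higher and 33.3% lower. The median log2 fold change over members was 0.41, against -0.00086 over all genes. All 7 mevalonate enzymes were higher, as were 10 of 12 sterol enzymes, 5 of 6 fatty acid genes, 2 of 6 SREBP control genes and 1 of 6 export and LXR genes. In ERPHF8 against ERAA, 24 members were called higher and 8 lower, against 29.7% and 24.1% of all genes, with a median of 0.28 over members and 0.04 over all genes. The 10 of smallest p there were FADS2 (0.86 ± 0.04), FADS1 (0.79 ± 0.04), IDI1, APOE, SQLE (0.70 ± 0.04), FDPS (0.69 ± 0.04), ACAT2 (0.70 ± 0.05), LSS (0.61 ± 0.05), SCD (0.54 ± 0.04) and DHCR7 (0.56 ± 0.05), with adjusted p of at most 6.51e-05 by limma. Both comparisons share the ERAA libraries. PHF8 RNA was lowest in ERDD, and summed monocytic leukaemia markers were 4232 to 4334 CPM in ERDD, 4806 to 4818 CPM in ERPHF8 and 6123 to 6686 CPM in ERAA. Summed B cell markers were 22.9 to 23.3 CPM in ERDD, 12.3 to 12.9 CPM in ERPHF8 and 13.3 to 13.6 CPM in ERAA, with 4 of 5 at 1 CPM or more on average in each line. Summed erythroid markers were 5.36 to 5.85 CPM in ERDD, 8.24 to 8.81 CPM in ERPHF8 and 13.2 to 13.3 CPM in ERAA, with EPOR as the 1 of 5 at 1 CPM or more. The part of PHF8 RNA and of these markers in the results was not tested.

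Among the mevalonate enzymes, IDI1 had 187 and 176 CPM in ERDD and 153 and 157 CPM in ERPHF8, against 87.1 and 87.9 CPM in ERAA. HMGCS1 had 179 and 170.0 CPM in ERDD and 137 and 139 CPM in ERPHF8, against 95.8 and 87.4 CPM in ERAA. Both were in the order ERDD, ERPHF8, ERAA from high to low, with no overlap between lines. The log2 fold change of IDI1 was 1.04 ± 0.04 (SE; adjusted p = 7.61e-07, limma) for ERDD against ERAA and 0.82 ± 0.04 (SE; adjusted p = 1.17e-05, limma) for ERPHF8 against ERAA. That of HMGCS1 was 0.93 ± 0.05 (SE; adjusted p = 3.37e-06, limma) for ERDD and 0.59 ± 0.05 (SE; adjusted p = 9.49e-05, limma) for ERPHF8. FDPS had another order, with 214 and 219 CPM in ERDD and 295 and 295 CPM in ERPHF8, against 179 and 187 CPM in ERAA. It was lower in ERDD than in ERPHF8 (-0.45 ± 0.04 SE, adjusted p = 0.00011, limma), though higher in ERDD than in ERAA (0.24). MVK, ACAT2, MVD and PMVK were higher in ERDD than in ERAA by 0.68, 0.68, 0.47 and 0.41; in ERPHF8 against ERAA the values were 0.46, 0.70, 0.18 and 0.14, of which that of PMVK was not called. The call of MVD in ERPHF8 was lost in 5 of 6 fits that left out 1 library each (adjusted p of 0.0524 to 0.163 by limma) and kept without ERAA library 1.

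Of the sterol enzymes, SQLE had the smallest p of all members. It had 213 and 217 CPM in ERDD and 178 and 174 CPM in ERPHF8, against 109.9 and 107 CPM in ERAA, with a log2 fold change of 0.99 ± 0.04 (SE; adjusted p = 6e-07, limma) for ERDD against ERAA and 0.70 for ERPHF8 against ERAA. DHCR7 (0.66 ± 0.05 SE, adjusted p = 9.9e-06, limma), HSD17B7 (0.66), MSMO1 (0.59), NSDHL, a sterol dehydrogenase (0.54), CYP51A1, lanosterol demethylase (0.50), LSS (0.49), EBP (0.34), SC5D (0.26) and FDFT1 (0.22) were also higher in ERDD than in ERAA. The 2 sterol reductases of overlapping function went otherwise: TM7SF2 was lower, with 16.8 and 17.9 CPM in ERDD and 22.9 and 22.04 CPM in ERPHF8, against 25.5 and 26.4 CPM in ERAA, and LBR was not called in ERDD against ERAA (0.01). In ERPHF8 against ERAA, 10 sterol enzymes were higher, LBR among them (0.20), TM7SF2 was lower (-0.20), and SC5D was not called (0.001). Among these, NSDHL lost its call when either ERDD library or either ERPHF8 library was left out (adjusted p of 0.0535 to 0.208 by limma), and EBP and TM7SF2 lost theirs when either ERPHF8 library was left out.

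The SREBP control genes did not move as a block. INSIG1 had 206 and 208 CPM in ERDD and 187 and 179 CPM in ERPHF8, against 139 and 142 CPM in ERAA, and STARD4 was higher in both as well (0.40 in ERDD and 0.22 in ERPHF8, each against ERAA). SREBF2 had 383 and 390.4 CPM in ERDD and 492 and 504 CPM in ERPHF8, against 489.7 and 482 CPM in ERAA. SREBF1 had 143 and 147 CPM in ERDD and 170.0 and 167 CPM in ERPHF8, against 185 and 182 CPM in ERAA. The genes of both SREBP precursors were thus lower in ERDD than in ERAA (SREBF2 -0.33 ± 0.04, SREBF1 -0.34 ± 0.04), as were INSIG2 (-0.39) and SCAP (-0.14). In ERPHF8 against ERAA, SREBF1 was called lower (-0.12) and SREBF2 was not called (0.04). SREBF1 lost this call in 4 of 6 fits, when either ERDD library or either ERPHF8 library was left out (adjusted p of 0.0744 to 0.192 by limma). STARD4 in ERPHF8 was not called when either ERPHF8 library was left out, nor SCAP in ERDD when either ERDD library was.

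The fatty acid genes were higher in ERDD than in ERAA in 5 of 6 cases and in ERPHF8 than in ERAA in 6 of 6. FASN had 718 and 691 CPM in ERDD and 718 and 733 CPM in ERPHF8, against 426 and 349 CPM in ERAA (0.87 for ERDD, 0.91 for ERPHF8). ACLY, which makes the acetyl-CoA that both pathways use, differed by 0.63 ± 0.04 (SE; adjusted p = 8.72e-06, limma) in ERDD and by 0.42 in ERPHF8, and ELOVL6 by 0.51 in ERDD and 0.53 in ERPHF8. SCD, the desaturase that makes oleate, had 849 and 860.3 CPM in ERDD and 1274 and 1258 CPM in ERPHF8, against 886 and 850.2 CPM in ERAA. ERDD and ERAA overlapped for SCD (-0.02, adjusted p = 0.659), and ERDD was lower than ERPHF8 (-0.57 ± 0.04 SE, adjusted p = 4.98e-05, limma).

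FADS1 and FADS2, the desaturases of polyunsaturated fatty acids, need care. The span of FADS2 (chromosome 11, 61792980 to 61867354, hg38) holds that of FADS1 (61799625 to 61829318) and nearly all of FEN1, a nuclease of DNA replication (61792637 to 61797244), so reads of both can also be counted for FADS2; the counting tool is not given in the sources used here. FADS1 had 300.1 and 290.1 CPM in ERDD and 301 and 298 CPM in ERPHF8, against 172 and 174 CPM in ERAA (0.77 ± 0.04 SE, adjusted p = 1.69e-06, limma for ERDD against ERAA). FADS2 as deposited differed by 0.67 ± 0.04 (SE; adjusted p = 4.64e-06, limma) in ERDD against ERAA. If all of them were, what was left of FADS2 after taking off FADS1 and FEN1 would be 181 to 187 CPM in ERDD and 296 to 299 CPM in ERPHF8, against 146 to 152 CPM in ERAA. FEN1 itself was 149 to 154 CPM in ERDD and 121 to 126 CPM in ERPHF8, against 69.8 to 78.2 CPM in ERAA.

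Cholesterol export genes were lower. ABCA1 had 20.5 and 20.4 CPM in ERDD and 39.0 and 42.0 CPM in ERPHF8, against 61.9 and 49.8 CPM in ERAA. ABCG1 had 0.536 and 0.970 CPM in ERDD and 1.21 and 1.64 CPM in ERPHF8, against 5.11 and 5.39 CPM in ERAA, from 62, 116 and 429 reads over both libraries of ERDD, ERPHF8 and ERAA. Neither overlapped between lines. The log2 fold change of ABCA1 was -1.42 ± 0.09 (SE; adjusted p = 7e-06, limma) for ERDD against ERAA and -0.45 ± 0.09 (SE; adjusted p = 0.00484, limma) for ERPHF8 against ERAA. That of ABCG1 was -2.22 ± 0.19 for ERDD and -1.59 ± 0.19 for ERPHF8 (SE), values that understate the change of so low a gene.

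MYLIP, the ligase that LXR raises, had 21.9 and 22.9 CPM in ERDD and 39.4 and 38.6 CPM in ERPHF8, against 45.9 and 44.8 CPM in ERAA, with log2 fold changes of -1.003 ± 0.05 (SE; adjusted p = 1.95e-06, limma) for ERDD and -0.22 ± 0.05 (SE; adjusted p = 0.00863, limma) for ERPHF8. APOE, also a known LXR target, had 8.24 and 8.12 CPM in ERDD and 9.99 and 10.0 CPM in ERPHF8, against 23.8 and 25.7 CPM in ERAA (-1.54 ± 0.07 SE, adjusted p = 1.02e-06, limma for ERDD and -1.27 ± 0.07 (SE; adjusted p = 1.28e-05, limma) for ERPHF8). ERPHF8 lay nearer to ERDD for APOE and nearer to ERAA for MYLIP. Of the LXR genes themselves, NR1H3 was lower in ERDD (-0.29) and in ERPHF8 (-0.24) than in ERAA. NR1H2 was higher in ERDD (0.19) and lower in ERPHF8 (-0.21). Leaving out 1 library ended the call of NR1H2 in ERDD (when either ERDD library was left out) and in ERPHF8 (without ERPHF8 library 1), of NR1H3 in ERDD (without ERDD library 1) and in ERPHF8 (without ERPHF8 library 1 or ERAA library 2), and of MYLIP in ERPHF8 (without ERPHF8 library 2).

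**Figure D4:**
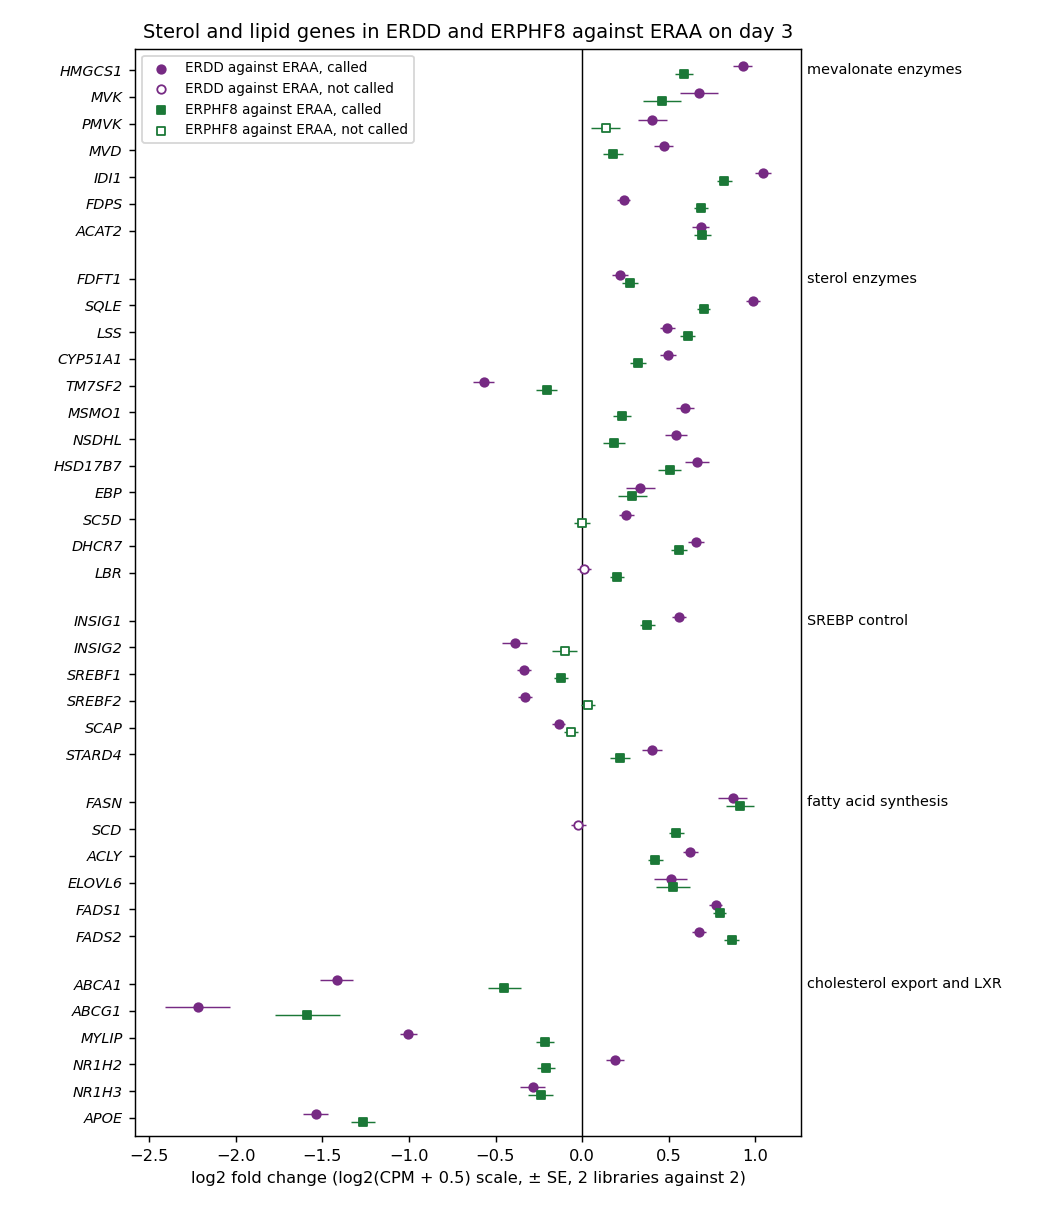
Log2 fold changes (x axis, ± SE, 2 libraries against 2) of the 37 members by role, with circles for ERDD against ERAA and squares for ERPHF8 against ERAA; open symbols were not called. All 7 mevalonate enzymes lie right of 0 in both, and 5 of 6 export and LXR genes lie left of 0 for ERDD and 6 of 6 for ERPHF8.

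Set against ERPHF8, ERDD had 13 members higher and 12 lower, while 24.8% of all genes were called higher and 28% lower, with a median log2 fold change of -0.01 over members and -0.02 over all genes. By smallest p, the lower ones were MYLIP (-0.79 ± 0.05), SCD, FDPS, ABCA1 (-0.97 ± 0.09), SREBF2 (-0.36 ± 0.04) and TM7SF2 (-0.36 ± 0.06), and the higher ones NR1H2 (0.40 ± 0.05), SQLE (0.28 ± 0.04), MSMO1 (0.36 ± 0.05) and HMGCS1 (0.34 ± 0.05), all at adjusted p of at most 0.00196 by limma. Of the mevalonate and sterol enzymes, 9 of 19 were higher in ERDD and 3 lower. PMVK, STARD4 and APOE lost their calls in 4 of 6 fits that left out 1 library each (when either ERDD library or either ERPHF8 library was left out). INSIG1 lost its call in 3 (when either ERDD library or ERPHF8 library 2 was left out) and INSIG2 in 3 (when ERDD library 2 or either ERPHF8 library was left out). ABCG1 and CYP51A1 lost theirs without ERDD library 1 or ERPHF8 library 2. ACLY lost its call without ERDD library 2 or ERPHF8 library 2. FADS2 and LBR lost theirs without ERDD library 2 or ERPHF8 library 1, and IDI1 without ERDD library 1.

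**Figure D5:**
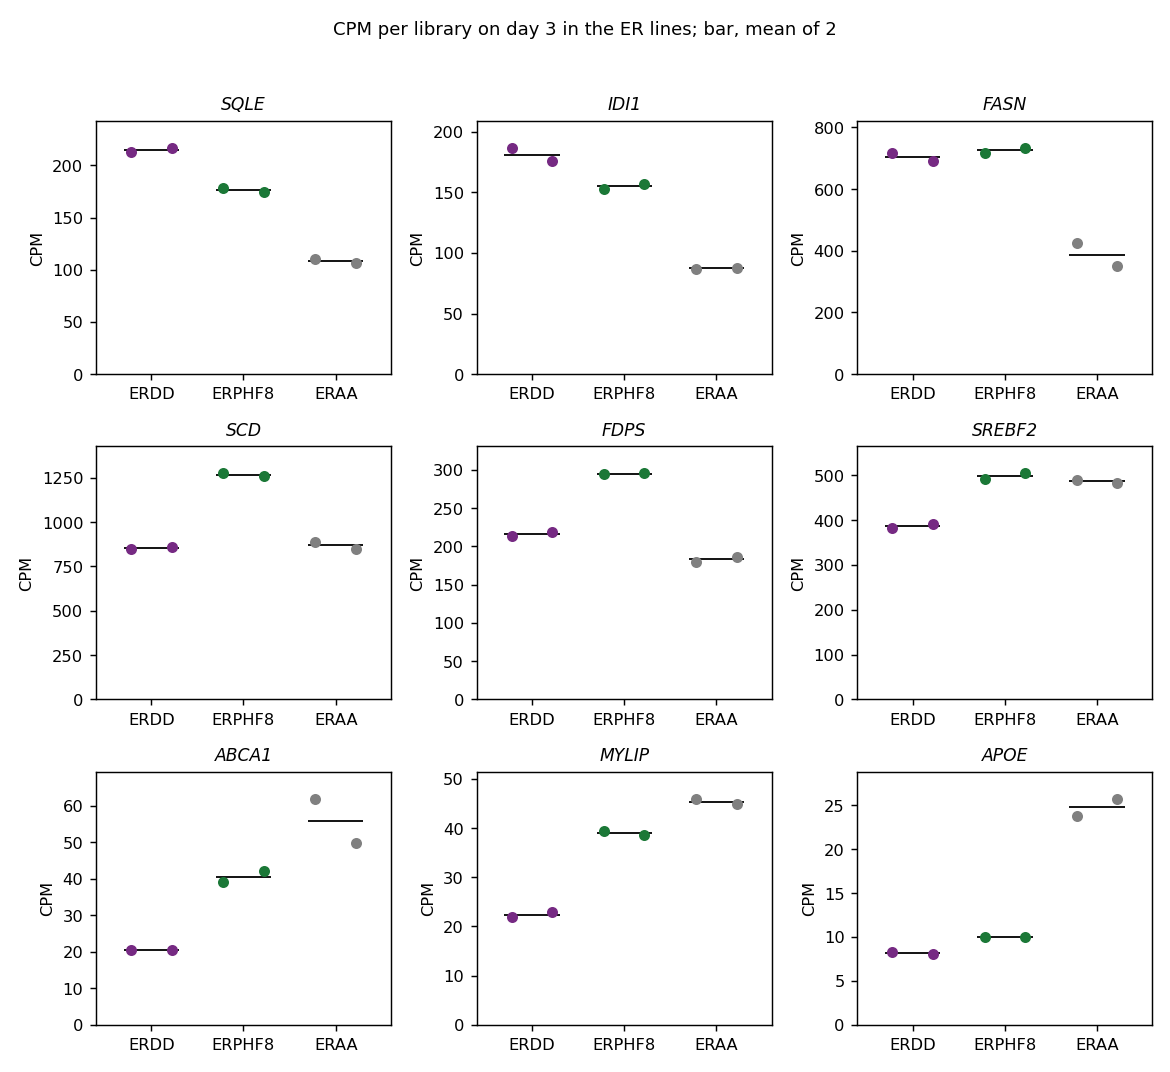
CPM in each library (y axis, from 0) of 9 members in ERDD, ERPHF8 and ERAA on day 3, with a bar at the mean of 2. SQLE and IDI1 fall in the order ERDD, ERPHF8, ERAA, SCD and FDPS are highest in ERPHF8, and ABCA1, MYLIP and APOE are highest in ERAA.

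Other genes of the same pathways were counted from 4 further lists. Of 21 genes of cholesterol transport and esterification, 6 were higher and 8 lower in ERDD than in ERAA. They were led by LIPA, the lysosomal lipase that frees cholesterol from its esters (1.53 ± 0.04 SE, adjusted p = 5.31e-08, limma), SCARB1, a lipoprotein receptor (0.61), and ABCA5, a lipid transporter (-1.18). Of 26 tested genes of fatty acid and glycerolipid synthesis, 14 were higher and 8 lower, led by FABP5, a fatty acid carrier (1.02), MID1IP1, a regulator of acetyl-CoA carboxylase (-0.94), and HACD3, a dehydratase of chain elongation (0.66). Of 16 isoprenoid and sterol genes, 11 were higher and 2 lower, among them CYB5B (0.59) and TMEM97 (0.54). Of 9 SREBP processing genes, 3 were higher and 2 lower, led by the protease MBTPS1 (0.26). The median log2 fold changes of the lists were -0.06 for transport, 0.15 for fatty acid, 0.29 for isoprenoid and 0.09 for SREBP processing genes, against -0.00086 over all genes, of which 34.8% were called higher and 33.3% lower.

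In ERPHF8 against ERAA, the same lists, in the order transport, fatty acid, isoprenoid and SREBP processing, had 4 higher and 7 lower, 10 higher and 5 lower, 9 higher and 0 lower, and 3 higher and 1 lower. That order holds for the counts and medians that follow. Their medians were -0.06, 0.06, 0.25 and 0.08, against 0.04 over all genes, of which 29.7% were called higher and 24.1% lower. In ERDD against ERPHF8 they had 7 higher and 4 lower, 10 higher and 5 lower, 6 higher and 2 lower, and 0 higher and 2 lower. The medians there were 4.1e-05, 0.02, 0.07 and -0.0075, against -0.02 over all genes, of which 24.8% were called higher and 28% lower. In PHF8 against wt they had 4 higher and 2 lower, 6 higher and 2 lower, 1 higher and 2 lower, and 0 higher and 3 lower, with medians of -0.00058, 0.16, -0.01 and -0.10, against 0.0051 over all genes, of which 12.7% were called higher and 8.28% lower. Beside ELOVL6, the elongase ELOVL1 (0.50 ± 0.05 SE, adjusted p = 3.31e-05, limma), the NADPH-making ME1 (0.87 ± 0.14 SE, adjusted p = 0.000819, limma) and HSD17B12, a reductase of chain elongation (0.33 ± 0.06 SE, adjusted p = 0.00222, limma), were higher in PHF8. In PHF8 against F279S the lists had 1 higher and 4 lower, 4 higher and 2 lower, 1 higher and 1 lower, and 0 higher and 2 lower, with medians of 0.0028, 0.12, -0.08 and -0.12, against 0.02 over all genes, of which 12.2% were called higher and 7.92% lower. In F279S against wt, 0 of their 72 genes tested were called by limma and 0 by voom on the recovered reads, 7 and 6 of them having an unadjusted p below 0.05. For all genes, the share at that unadjusted p was not counted. The medians were 0.01, 0.01, -0.02 and 0.0056, against -0.0058 over all genes, of which 0.0146% were called higher and 0% lower. Between libraries 3 and 4 and libraries 1 and 2, they had 12 higher and 6 lower, 8 higher and 14 lower, 5 higher and 7 lower, and 2 higher and 4 lower, with medians of 0.12, -0.08, -0.05 and -0.01, against 0.03 over all genes, of which 38.1% were called higher and 32.3% lower.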

How the data were processed

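For each library the authors deposited RPKM values with hg38 gene coordinates. The submitters' processing notes name STAR (2.7.0c), SAMtools (1.9) and DESeq2; the sources used here do not give the counting tool, the strand setting or the annotation. RPKM times the gene's full span gave CPM, and 100% of values came out as whole reads within 0.001 reads. Each comparison used limma (version 3.58.1, R 4.3.3, with a trended prior) on log2(CPM + 0.5). The count models planned as alternatives to this fit of RPKM-derived values were not run, though voom was run on the recovered reads. The test kept genes that reached 1 CPM in 4 or more libraries of the first experiment (13683) or in 2 or more of the second (13831), called at a Benjamini-Hochberg adjusted p below 0.05 over all of them. Each experiment was fitted with the group as the only term, and the library pairs with a mean for each line and pair. The fits were tested on simulated data without the general pair difference of the first experiment. That test does not show how the group fit behaves where library pairs differ. Figures used matplotlib 3.10.9.

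In the first experiment, libraries of the same number deviated together across lines (all 12 correlations of deviations from group means lay between 0.48 and 0.91). Libraries of different numbers reached correlations of up to 0.82, so these values do not show that single numbers match across lines. The number in the labels was also fitted as a block. The members, lists and library pairs were chosen with earlier results of these data known. All members are named; in each comparison those called, or the 10 of smallest p, or the 3 of smallest p where none was called, are given with statistics, and other pathway genes by up to 3 of smallest p; 1 of these is not reported here.

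For a list, no test of its own was made: counts and medians stand beside those of all genes.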

Additional observations from a re-analysis of the deposited data

Results flagged for a closer look

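The difference between lines depended on the library pair by a test of the difference itself. For PHF8 against wt it did so for 25 of 36 members, 2 positive and 23 negative, while 16.1% of all genes were called positive and 14.4% negative. For F279S against wt it did so for 2 members, both negative, while 0.38% of all genes were called positive and 0.519% negative, and with the replicate block for 14 members and 4.28% of all genes. For PHF8 against F279S it did so for 17 members, 3 positive and 14 negative, while 11.8% of all genes were called positive and 10.1% negative. For PHF8 against wt, 31 of 36 members had a positive log2 fold change in libraries 1 and 2 and 13 of 36 in libraries 3 and 4. The median over all genes was 0.0083 in libraries 1 and 2 and 0.01 in libraries 3 and 4. The share of all genes with a positive value was not counted for each pair. In 111 groups of 4 libraries, 1 for each member and line, 0 had a library that stood apart from the other 3 by Dixon's test. Where the library pairs stand apart, a group splits into 2 and 2, and this test could then hardly flag 1 library.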

How the results depend on the processing

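Of 175 results for single members, 175 kept their direction and their side of the threshold with a pseudocount of 0.1 or 1 CPM and with voom on the recovered reads (an alternative added after seeing the data), 171 with TMM scaling, 166 without the filter on low values and 0 reversed under any alternative run. These results are the members called in the main fits, or the 3 of smallest p where none was called, so a reversal could hardly appear. Only 6 of them were checked within single library pairs. Members outside this set, such as INSIG1 in PHF8 against wt, did change direction between the pairs. The replicate block changed 0 of 142 such results, which do not include members singled out after their values were seen, but it moved counts of members called: 11 for PHF8 against wt in place of 1, 11 for PHF8 against F279S in place of 2, and 14 for the interaction of F279S against wt in place of 2; it moved no other count past 1.5 times. With the library pair as a factor the counts were 12 for PHF8 against wt and 11 for PHF8 against F279S, and with each pair averaged 2 and 4. Shares of all genes called are not given for these fits or for any fit that left out 1 library. Their counts thus do not show whether members moved more than other genes. Libraries 1 and 2 alone gave 23 for PHF8 against wt, 14 for F279S against wt and 18 for PHF8 against F279S, and libraries 3 and 4 alone gave 18 for PHF8 against wt and 16 for PHF8 against F279S. Without the filter, the interaction of F279S against wt called 1 member. Leaving out 1 library at a time gave 1 to 3 members for PHF8 against wt, 1 to 3 for PHF8 against F279S, 1 to 5 for the interaction of F279S against wt, 11 to 17 for that of PHF8 against F279S, 22 to 26 for that of PHF8 against wt, 32 to 35 for ERDD against ERAA, 24 to 32 for ERPHF8 against ERAA and 17 to 30 for ERDD against ERPHF8. Where this left an ER line with 1 library, that library was assumed to vary like the others.

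In the second experiment, libraries of the same number did not deviate together (correlations of -0.34 to 0.10), so they share only a number; pairing the ERPHF8 and ERAA numbers crosswise, added after seeing the data, called 31 of 37 members in place of 32. In the first experiment, 2 of 12 libraries correlated best with both libraries of their own number. The 2 count models planned as alternatives were not run on the reads recovered from the deposited RPKM. Depth limits ABCG1 most, with 24 to 45 reads over the 4 libraries of a line in the first experiment. The cause of a count that moved was not tested.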
